A study of Mus musculus with 3 samples.

Results

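The genes examined here are 38 mouse genes known from monocytes, macrophages and dendritic cells. They were taken by symbol from 24421 gene symbols measured by RNA sequencing in granulocyte progenitors, and all 38 were listed in every library. Granulocyte progenitors are bone marrow cells already committed to the granulocyte fate. They were sorted by flow cytometry from the bone marrow of female mice, and there were 3 libraries with 1 per group. The NTB library came from F1 semi-syngeneic (H-2b/d) mice without a tumor. The 4T1-TB library came from F1 mice of the same description carrying 4T1 mammary tumor cells implanted at the orthotopic site. The third library, IRF8-deficient, came from C57BL/6 (H-2b) mice genetically deficient in the transcription factor IRF8, so strain and genotype cannot be told apart in any comparison with it. The sources used here do not give the age of the mice, the allele behind the deficiency or the number of mice pooled. With 1 library per group there is no replicate check and no statistical test, and each difference below describes these libraries.

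Monocytes and dendritic cells arise in the bone marrow from progenitors that they share in part with granulocytes. IRF8, acting with partners such as PU.1, promotes the monocyte and dendritic fates and restrains neutrophil production. Macrophages are recognised by scavenger receptors, lysosomal proteins and receptors for dying cells. Dendritic cells are recognised by a few transcription factors and C-type lectins and by the costimulatory molecules with which they activate T cells. Many of the same genes are also used at lower levels by granulocytes and their precursors.

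Values are the RPKM deposited by the authors, a read density scaled to gene length and to library size. RPKM is per length, so levels of different genes can be set side by side. The whole reads recovered from them numbered 43861015 (NTB), 24228219 (4T1-TB) and 37207657 (IRF8-deficient). Intervals are exact 95% intervals for counting error only, Poisson for a level and Clopper-Pearson for a ratio. The 11 granulocyte progenitor markers in the files were all at an RPKM of 1 or more in every library, and their summed RPKM was 18004 in NTB, 21326 in 4T1-TB and 11184 under IRF8 deficiency. The 13 mature neutrophil markers summed to 10032, 14181 and 139687. Irf8 itself stood at 43.8 in NTB, 8.60 in 4T1-TB and 13.7 under IRF8 deficiency. These are values of the whole gene model, and since the part of the gene that is altered is not given, reads that remain do not check the IRF8-deficient label. The 12 monocyte and macrophage markers outside the list summed to 902, 581 and 1419, most of it from Ly6c2, and the 11 others to 163, 103 and 70.4. Vcam1 made up most of the latter sum in NTB and 4T1-TB, at 99.6 and 71.3, and stood at 10.5 under IRF8 deficiency. There Ccr2 was the largest of the 11, at 40.8 against 24.2 in NTB and 13.4 in 4T1-TB. By the 2-fold call explained below, 0 of the 7 compared among the 12 markers were higher and 3 lower in each comparison with NTB. Of all genes compared, 1.67% were higher and 1.35% lower in 4T1-TB, and 8.78% and 5.73% in IRF8-deficient. C1qa, C1qb and C1qc were at 0 in 4T1-TB and at most 0.252 in NTB, so they were low throughout. The 12 dendritic cell markers outside the list summed to 27.9, 28.8 and 24.5, most of it Bst2 at 17.7, 20.4 and 12.6. The next largest were Tcf4 at 4.72, 4.10 and 2.74 and H2-Ab1 at 2.43, 1.92 and 4.21. Stem and early progenitor markers summed to 43.6, 19.0 and 8.06, mostly Cd34 at 36.9, 8.73 and 5.41. T and NK cell markers summed to 421, 436 and 153, nearly all of it Nkg7, and basophil, mast cell and eosinophil markers to 22.6, 21.5 and 10.4. Markers of B cells summed to 17.4, 12.9 and 13.2, those of stroma and endothelium to 12.1, 5.89 and 6.63, those of megakaryocytes to at most 3.58, those of erythroid cells to at most 0.519 and those of epithelium to at most 6.15. The part of these cell types in the lineage genes' values was not tested.

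An RPKM of 1 was reached in some library by 20 of the 38 lineage genes, and 18 stayed below it in all 3. Among those 20, Nr4a1 and Cd80 reached 1 only in IRF8-deficient, so the bar of 1 fixed that library as their highest. In the same way Pou2f2 reached 1 only in NTB, which fixed NTB as its highest. Summed over all 38 genes, the RPKM was 359 in NTB, 215 in 4T1-TB and 604 under IRF8 deficiency. F13a1 alone accounted for 151, 89.8 and 163 of these sums, and the other genes came to 209, 126 and 441. The transcripts that were present thus came from a small part of the list, with 6 genes at an RPKM of 10 or more in NTB, 6 in 4T1-TB and 9 under IRF8 deficiency. In bulk RNA, fewer cells of a type and less RNA per cell cannot be told apart.

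**Figure D1:**
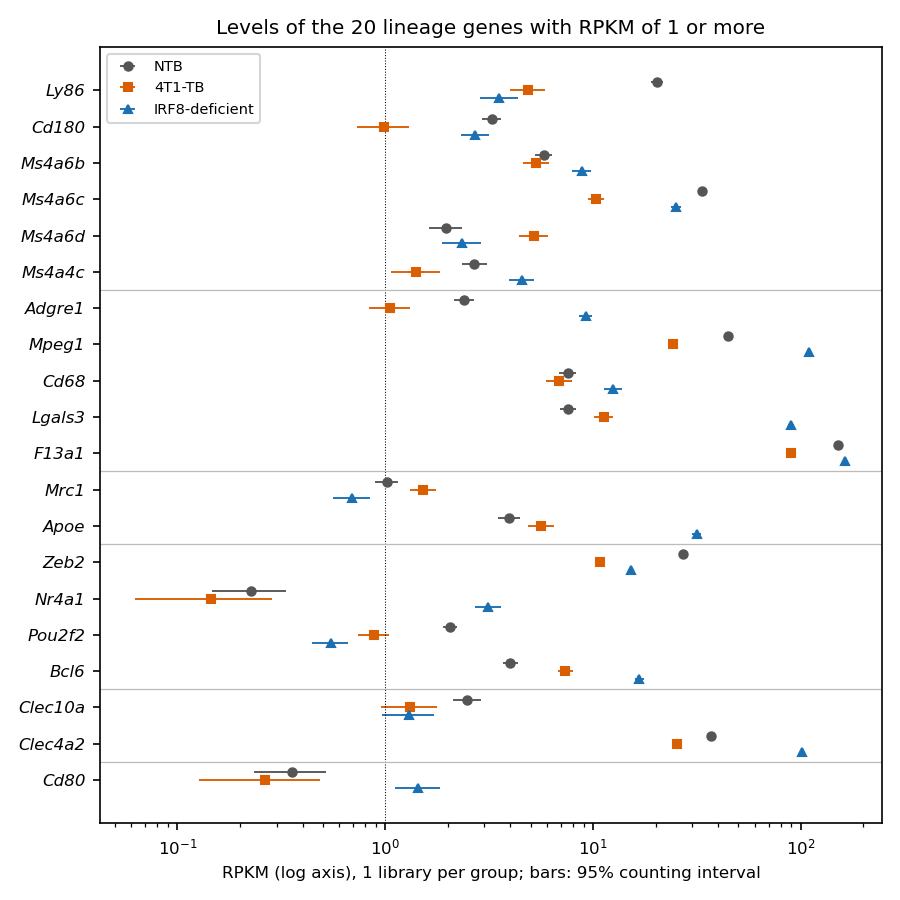
RPKM (log axis) of the 20 lineage genes that reached an RPKM of 1 in any library, in NTB (circles), 4T1-TB (squares) and IRF8-deficient (triangles), with 95% counting intervals as bars and gray lines between role groups. F13a1 was highest in every library, and Lgals3, Apoe and Nr4a1 show the widest gap between IRF8-deficient and the other libraries.

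Libraries were compared as log2(RPKM + 1), a scale on which low genes appear to differ less than they do. The 10658 genes that reached an RPKM of 1 anywhere entered, and 2-fold on this scale (a difference of 1 in size) is the call. In 4T1-TB against NTB, 4 of the 20 lineage genes compared were lower, where 1.35% of all genes compared were lower, and 1 was higher, where 1.67% of all genes were. The lower genes were Ly86, Cd180, Ms4a6c and Zeb2, and the higher one was Ms4a6d. With a pseudocount of 5, Cd180 (−0.46) and Ms4a6d (0.55) missed the call. The median difference of the 20 genes was −0.56, against 0.01 over all genes compared.

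In IRF8-deficient against NTB, 7 of 20 were higher, where 8.78% of all genes compared were higher, and 1 was lower, where 5.73% of all genes were. The higher genes were Lgals3, Apoe, Bcl6, Nr4a1, Adgre1, Clec4a2 and Mpeg1, and the lower one was Ly86. Nr4a1 entered only through IRF8-deficient, so its direction was fixed here and against 4T1-TB below. With a pseudocount of 5, Adgre1 (0.94) and Nr4a1 (0.64) missed the call. The median was 0.56, against −0.02 over all genes. Both comparisons share the NTB library and are not independent. All 13 mature neutrophil markers were higher in IRF8-deficient by the same rule, and 7 of 13 were in 4T1-TB, and the part of such cells in the lineage genes' values was not tested.

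In IRF8-deficient against 4T1-TB, 9 of 20 were higher, where 8.83% of all genes compared were higher, and none was lower, where 7.07% of all genes were. The 9 genes were the 7 named above with Ms4a6c and Ms4a4c. By summed recovered reads, Ms4a6c (0.83), Ms4a4c (0.91) and Bcl6 (0.72) missed this call, and Bcl6 also missed it when libraries were rescaled without the 20 highest genes (0.97). With a pseudocount of 5, Ms4a6c (0.97), Ms4a4c (0.58), Nr4a1 (0.66) and Bcl6 (0.81) missed it. The median was 0.93, against 0.00 over all genes. By level intervals that did not overlap, 4T1-TB was the lowest library for 8 of the 20 genes, where it was lowest for 14.4% of all genes compared. IRF8-deficient was the highest for 12 of 20, where it was highest for 31.9% of all genes. Nr4a1 and Cd80 are among these 12, and their entry through IRF8-deficient alone fixed it as their highest library. Mrc1 and Pou2f2, 2 of 20, were lowest in IRF8-deficient, where 31.2% of all genes were. IRF8-deficient highest with 4T1-TB lowest held for Ms4a4c, Adgre1, Mpeg1, F13a1 and Clec4a2, 5 of 20, where it held for 9.01% of all genes. With the call set at 4-fold, no gene of the list was higher (0.441% of all genes) or lower (0.0469%) in 4T1-TB against NTB. At 4-fold in IRF8-deficient against NTB, Lgals3 and Apoe were higher (1.9% of all genes) and Ly86 was lower (0.385%). At 4-fold in IRF8-deficient against 4T1-TB, Lgals3, Adgre1, Apoe and Mpeg1 were higher (1.67%) and 0 genes lower (0.469%).

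**Figure D2:**
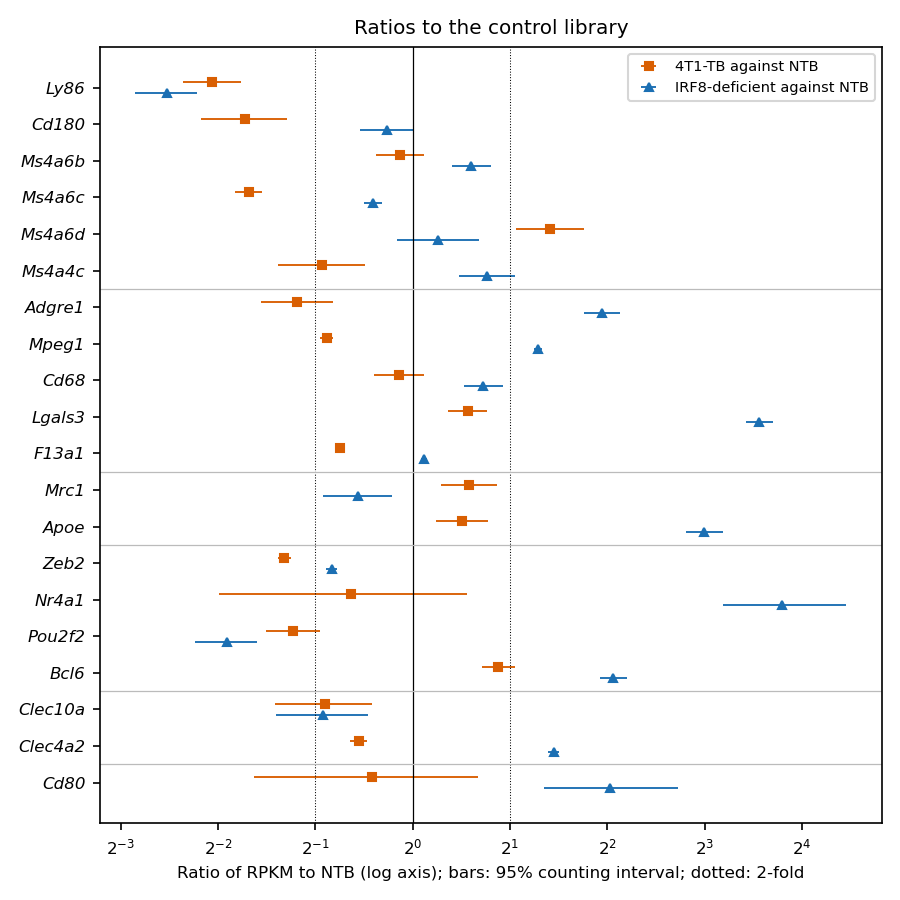
Ratio of RPKM to the NTB library (log axis) for the 20 lineage genes compared, in 4T1-TB (squares) and IRF8-deficient (triangles), with 95% Clopper-Pearson counting intervals and dotted lines at 2-fold. Ly86 and Pou2f2 lie left of 1 in both comparisons, while Lgals3, Apoe and Bcl6 lie right of 1 in both and Adgre1, Mpeg1 and Clec4a2 lie on opposite sides.

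The way libraries are scaled bears on these counts. Dividing the library size behind the RPKM by the recovered reads gave 1.02 (NTB), 0.917 (4T1-TB) and 0.702 (IRF8-deficient). Scaled by summed recovered reads instead, the median of all genes moved by −0.14 in 4T1-TB against NTB, −0.48 in IRF8-deficient against NTB and −0.33 in IRF8-deficient against 4T1-TB. The split of all genes then went from 178 higher and 144 lower to 156 and 210 in the first, from 936 and 611 to 466 and 1962 in the second, and from 941 and 754 to 505 and 1562 in the last. Rescaled without the 20 highest genes, the shifts were −0.06, −0.17 and −0.11, and the splits were 171 and 165, 714 and 933, and 748 and 929. Under summed reads 5 of the 20 lineage genes were higher in IRF8-deficient against NTB, where 4.37% of all genes were, and 3 were lower, where 18.4% of all genes were. The lineage genes' median in IRF8-deficient against NTB was 0.11, with the median of all genes then at −0.50.

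The first role group is made of surface and receptor genes of monocytes. Ly86 encodes MD-1, the secreted partner that pairs with CD180, a Toll-like receptor homolog, on myeloid cells and B cells. Its gene model (ENSMUSG00000021423.6) runs from 37345208 to 37419036 on chromosome 13 in mm10, plus strand. Its RPKM was 20.3 in NTB, 4.88 in 4T1-TB and 3.53 under IRF8 deficiency. NTB was thus the high library, and both others lay far below it with no overlap of intervals. Ly86 was 4.16-fold lower in 4T1-TB (interval 3.40 to 5.13) and 5.74-fold lower in IRF8-deficient (4.63 to 7.19). It was the only one of the 20 genes called lower in both comparisons with NTB.

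Cd180, which encodes the receptor that MD-1 accompanies, did not follow its partner in every library. Its RPKM was 3.25 in NTB, 0.987 in 4T1-TB and 2.72 under IRF8 deficiency. The 4T1-TB library was low, at 3.30-fold below NTB (interval 2.45 to 4.52) on 51 reads. The IRF8-deficient level was 0.835 times that of NTB, with an interval of 0.689 to 1.01 that includes equality. Of the MD-1 and CD180 pair, both members were therefore low in 4T1-TB and only Ly86 was low in IRF8-deficient.

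The neighbour of Ly86 on chromosome 13 behaved differently. F13a1, which encodes the A subunit of coagulation factor XIII and is a marker of monocytes and resident macrophages, lies on the minus strand from 36867178 to 37050244, 295 kb from Ly86 with no protein-coding gene between them in GENCODE M21. F13a1 stood at 151 in NTB, 89.8 in 4T1-TB and 163 under IRF8 deficiency, from 26481, 7835 and 16730 reads. It ranked 318 among all listed genes in NTB, 723 in 4T1-TB and 357 under IRF8 deficiency. In 4T1-TB it was 1.68-fold lower (interval 1.63 to 1.72), short of the call. In IRF8-deficient the ratio to NTB was 1.08 (1.06 to 1.10), and its direction depended on the scaling, with log2 differences of 0.12 as deposited, −0.07 without the 20 highest genes and −0.42 by summed reads.

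**Figure D3:**
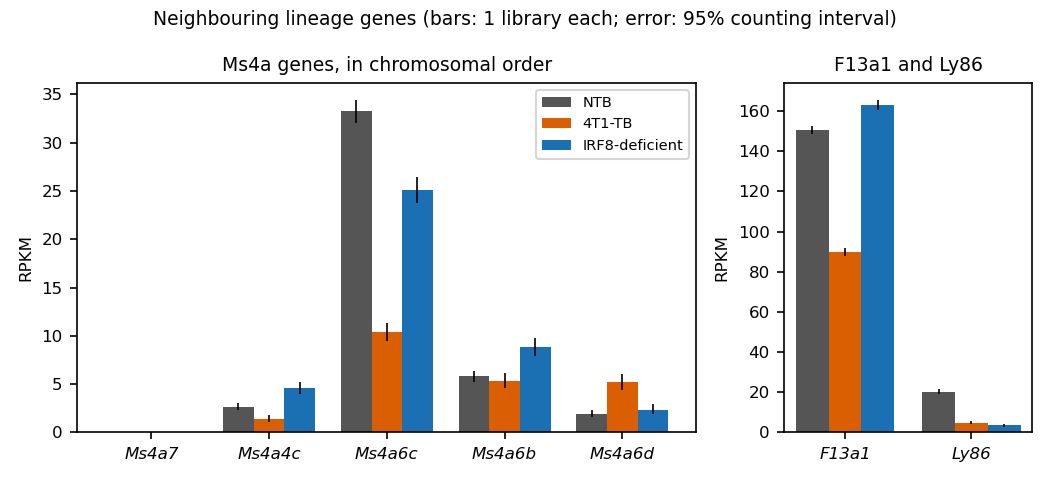
RPKM in the 3 libraries of the Ms4a genes in their order along chromosome 19 and of the chromosome 13 neighbours F13a1 and Ly86, each bar 1 library with its 95% counting interval. Ms4a6c is tallest in NTB at 33.3 and Ms4a6d in 4T1-TB at 5.19, and Ly86 drops to 4.88 and 3.53 beside an F13a1 of 89.8 and 163.

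The Ms4a genes encode membrane-spanning proteins related to CD20, and those of the Ms4a4 and Ms4a6 branches are used by monocytes and macrophages. The 5 on the list lie within 284 kb of chromosome 19, from 11321039 to 11604849 of mm10, in the order Ms4a7, Ms4a4c, Ms4a6c, Ms4a6b and Ms4a6d. They did not move as a block. Ms4a6c measured 33.3 RPKM in NTB, 10.4 in 4T1-TB and 25.1 under IRF8 deficiency. NTB was highest and 4T1-TB lowest, at 3.21-fold below NTB (interval 2.91 to 3.55), and in IRF8-deficient it was 1.33-fold lower (1.24 to 1.41).

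Ms4a6b, 34.3 kb further along, had 5.80 in NTB, 5.31 in 4T1-TB and 8.81 under IRF8 deficiency. The levels in NTB and 4T1-TB overlapped, and IRF8-deficient was higher by 1.52-fold (interval 1.32 to 1.75), short of the call. Ms4a6d, at the end of the row on the minus strand, had 1.95, 5.19 and 2.35. Here 4T1-TB was the high library, at 2.66 times NTB (2.08 to 3.40), while the NTB and IRF8-deficient levels overlapped. By summed reads its difference in 4T1-TB was 0.97, just short of the call, and its sign in IRF8-deficient turned from 0.18 to −0.19.

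Ms4a4c had 2.68 in NTB, 1.41 in 4T1-TB and 4.56 under IRF8 deficiency, so the libraries stood apart in that order with 4T1-TB lowest. Against 4T1-TB the IRF8-deficient level was 3.23-fold higher (interval 2.38 to 4.44). Ms4a7, a gene of mature macrophages at the other end of the row, was at 0 in every library, where 3 reads would have given 0.039, 0.079 and 0.067. The values of the Ms4a6 genes and of Ms4a4c are uncertain beyond counting error, since 10.5% of the 50-base windows of Ms4a6c transcripts, 3.57% of Ms4a6b, 2.54% of Ms4a6d and 8.19% of Ms4a4c also occur in transcripts of other genes, relatives in the family among them. Genes annotated on the other strand overlap Ms4a6c, Ms4a6b and Ms4a4c, and likewise Cd180, F13a1, Pou2f2 and Bcl6. The sources used here do not give the strandedness of the libraries, so reads of such partners cannot be told apart.

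The sequences before Ms4a6c and Ms4a6b are shown because this pair of close relatives differed in level and in the order of the libraries. Each is the 250 bases before the RefSeq start of the gene on the plus strand of GRCm38.p6, chr19:11469118-11469367 and chr19:11518309-11518558. Aligned, 175 bases of the windows stood opposite each other and 149 were identical (85.1%). Capitals mark the 26 aligned bases that differ between the genes.
Ms4a6c: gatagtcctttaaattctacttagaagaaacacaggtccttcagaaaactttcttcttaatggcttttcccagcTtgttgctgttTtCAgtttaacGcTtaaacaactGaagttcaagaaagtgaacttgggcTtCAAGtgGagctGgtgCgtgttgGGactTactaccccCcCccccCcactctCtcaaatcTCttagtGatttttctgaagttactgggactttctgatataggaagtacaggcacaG
Ms4a6b: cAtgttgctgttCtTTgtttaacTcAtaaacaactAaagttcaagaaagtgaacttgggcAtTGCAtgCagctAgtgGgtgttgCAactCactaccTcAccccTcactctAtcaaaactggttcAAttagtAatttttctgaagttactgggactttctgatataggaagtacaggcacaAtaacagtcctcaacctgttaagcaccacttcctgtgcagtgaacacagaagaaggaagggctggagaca
The windows match for most of their shared length and are offset at the ends. The Ms4a6b window lies inside the GENCODE M21 gene model, which starts upstream of the RefSeq start, and 2 bases of the Ms4a6c window do.

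The next group holds macrophage surface, lysosomal and secreted genes, and all 5 of them, F13a1 included, reached an RPKM of 1. Lgals3 encodes galectin-3, a lectin that binds galactosides and is abundant in activated macrophages. It stood at 7.61 in NTB, 11.2 in 4T1-TB and 89.6 under IRF8 deficiency. IRF8-deficient was far above the others, at 11.8 times NTB (interval 10.7 to 12.99), and 4T1-TB was 1.48 times NTB (1.28 to 1.70). Lgals3 moved from rank 6867 among all listed genes in NTB to 712 in IRF8-deficient.

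Adgre1 encodes F4/80, the surface antigen used to identify mouse macrophages. Its RPKM was 2.39 in NTB, 1.05 in 4T1-TB and 9.22 under IRF8 deficiency. The 3 libraries did not overlap, with 4T1-TB lowest at 2.27-fold below NTB (interval 1.77 to 2.95) and IRF8-deficient highest at 3.85 times NTB (3.39 to 4.38). At this low level the pseudocount held the 4T1-TB difference to −0.72, short of the call.

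Mpeg1 encodes perforin-2, a pore-forming protein of the phagosome. It had 44.8 in NTB, 24.3 in 4T1-TB and 109 under IRF8 deficiency, on at least 2339 reads in each library. The order was again 4T1-TB lowest and IRF8-deficient highest, with ratios to NTB of 0.543 (interval 0.518 to 0.568) and 2.44 (2.38 to 2.51). By summed reads the 4T1-TB difference of −1.01 met the call and the IRF8-deficient difference of 0.74 did not. Cd68, which encodes a lysosomal glycoprotein of macrophages, stood at 7.56, 6.86 and 12.5. NTB and 4T1-TB overlapped and IRF8-deficient was 1.65 times NTB (1.44 to 1.90).

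Among the 8 scavenger and uptake genes only Apoe and Mrc1 reached an RPKM of 1. Apoe encodes apolipoprotein E, which carries lipid out of macrophages. It stood at 3.96 in NTB, 5.62 in 4T1-TB and 31.5 under IRF8 deficiency. IRF8-deficient was the high library at 7.95 times NTB (interval 6.99 to 9.08), and 4T1-TB was 1.42 times NTB (1.18 to 1.71). Mrc1, the macrophage mannose receptor gene, ran the other way at 1.02, 1.52 and 0.691. It was highest in 4T1-TB and lowest in IRF8-deficient, and the ratio of IRF8-deficient to 4T1-TB was 0.454 (0.350 to 0.584).

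The other 6 scavenger and uptake genes were low throughout. Msr1, the class A scavenger receptor gene, was the highest of them at 0.374 in NTB, 0.338 in 4T1-TB and 0.556 under IRF8 deficiency. Cd163, the hemoglobin scavenger receptor gene of resident macrophages, had 35 reads in NTB, 0 in 4T1-TB and 3 under IRF8 deficiency, for RPKM of 0.174, 0 and 0.026. With the floor of 3 reads in place of 0, Cd163 was 5.78-fold lower in 4T1-TB. The counting interval from the 0 reads starts at 4.46-fold. In IRF8-deficient it was 6.80-fold lower (interval 2.14 to 34.6). Both of the low libraries thus held next to no Cd163, from an NTB level that was itself small.

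Axl and Mertk encode receptor kinases with which macrophages take up dying cells. Axl had 0.176 in NTB, 0.053 in 4T1-TB and 0.136 under IRF8 deficiency, and Mertk had at most 3 reads in any library. Siglec1, the sialoadhesin gene of resident macrophages, had 12, 2 and 13 reads. Cd36, a scavenger receptor for oxidized lipid, had 1 read in all, in IRF8-deficient. The complement genes C1qa, C1qb and C1qc, which mark mature macrophages and are not on the list, lay between 0 and 0.252.

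Of the 7 transcription factors, Zeb2, Bcl6, Pou2f2 and Nr4a1 were compared. Zeb2 encodes a zinc finger repressor needed by developing dendritic cells and monocytes. It measured 27.0 RPKM in NTB, 10.8 in 4T1-TB and 15.2 under IRF8 deficiency, from 11332, 2251 and 3711 reads. NTB was the high library and 4T1-TB the low one, with a fold of 2.50 below NTB in 4T1-TB (interval 2.39 to 2.61) and 1.78 in IRF8-deficient (1.72 to 1.85). The latter difference of −0.79 did not meet the call as deposited and was −1.30 by summed reads. Zeb2os, annotated on the opposite strand across Zeb2, had 4.21, 1.11 and 1.52, and without strand their reads cannot be told apart where they overlap.

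Pou2f2 encodes OCT2, a factor of B cells that nonclassical monocytes also use. Its gene length in the deposited values could not be settled, so its read counts are uncertain. It had 2.05 in NTB, 0.878 in 4T1-TB and 0.546 under IRF8 deficiency, so it was lower in both than in NTB with no overlap. The folds below NTB were 2.34 (interval 1.94 to 2.84) and 3.76 (3.03 to 4.70). On log2(RPKM + 1) these came to −0.70 and −0.98, both short of the call. With Ly86, Ms4a6c, Zeb2 and Clec10a it made up the 5 genes that were highest in NTB with intervals apart from both others, where 12.5% of all genes compared were highest in NTB. Pou2f2 reached an RPKM of 1 only in NTB. Its entry therefore fixed NTB as its highest library and its direction in both comparisons with NTB.

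Bcl6 encodes a repressor with roles in germinal center B cells and in macrophages. It had 4.00 in NTB, 7.36 in 4T1-TB and 16.7 under IRF8 deficiency. The 3 libraries stood apart in that order, at 1.84 times NTB in 4T1-TB (interval 1.63 to 2.07) and 4.17 times in IRF8-deficient (3.78 to 4.59). Nr4a1 encodes NUR77, which is required for nonclassical monocytes and is also an immediate early gene. It was close to silent in NTB and 4T1-TB, at 0.225 and 0.145 from 25 and 8 reads, and stood at 3.12 in IRF8-deficient from 202 reads, a ratio to NTB of 13.9 (9.12 to 21.9).

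The factors that define other branches were near 0. Zbtb46, the factor of conventional dendritic cells, had 2, 1 and 2 reads. Batf3, needed for cross-presenting dendritic cells, was at 0 in all 3 libraries, where 3 reads at the reference length would have given 0.084, 0.169 and 0.143. Maf, a factor of resident macrophages, had 4, 6 and 4 reads.

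Pou2f2 and Bcl6 were also the genes with a match to a composite ETS and IRF element, the joint site that IRF8 can occupy with PU.1. RefSeq promoter sequences of GRCm38.p6 were matched for 28 of the 38 genes, and the 250 bases before each start were searched on both strands. The element, read as GGAA and GAAA set 2 bases apart, was found for 2 of 28 genes and for 2.68% of all 27025 genes with such a sequence. The core of the interferon response element, GAAA repeated after a gap of 2 bases, was found for 0 of 28 genes and 3.46% of all, and the PU.1 core AGAGGAAGT for 0 of 28 and 0.940% of all. Each of the 2 genes had a single match, so no matches overlapped among these genes. The windows with a match are shown 5′ to 3′ along the minus strand, on which both genes lie, with the match in capitals. The Pou2f2 window is chr7:25132461-25132710, with the match on the opposite strand, and the Bcl6 window is chr16:23981284-23981533, before the second of its listed starts. The window before Ly86, chr13:37345095-37345344 on the plus strand, is shown with them as that of the gene with the lowest ratio to NTB in both comparisons among the 20 compared, and it held none of the 3 motifs. These RefSeq starts lie inside the GENCODE gene models, while the window before the first listed Bcl6 start has 0 bases inside. In the GENCODE M21 models, all 250 bases of the Pou2f2 and Bcl6 windows and 137 of the Ly86 window lie inside the gene.
Pou2f2: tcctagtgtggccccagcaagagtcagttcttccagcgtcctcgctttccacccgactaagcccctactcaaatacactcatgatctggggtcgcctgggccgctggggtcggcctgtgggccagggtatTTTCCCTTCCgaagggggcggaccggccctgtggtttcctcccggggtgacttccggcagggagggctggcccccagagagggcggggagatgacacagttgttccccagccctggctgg
Bcl6: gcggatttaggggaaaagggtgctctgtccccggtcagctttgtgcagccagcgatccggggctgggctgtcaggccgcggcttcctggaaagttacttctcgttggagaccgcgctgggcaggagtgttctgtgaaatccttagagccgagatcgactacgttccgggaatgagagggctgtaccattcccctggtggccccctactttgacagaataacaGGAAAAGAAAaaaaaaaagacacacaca
Ly86: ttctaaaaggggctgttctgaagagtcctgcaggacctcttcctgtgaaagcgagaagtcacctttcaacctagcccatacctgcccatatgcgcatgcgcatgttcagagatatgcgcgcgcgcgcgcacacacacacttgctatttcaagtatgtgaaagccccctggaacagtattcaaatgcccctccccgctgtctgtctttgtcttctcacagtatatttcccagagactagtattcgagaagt
The pair with a match differed in direction in IRF8-deficient, where Bcl6 was above NTB and Pou2f2 below it, and a match is a description of letters and not a bound site.

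Of the 6 dendritic surface genes, only Clec4a2 and Clec10a reached an RPKM of 1. Clec4a2, the highest of them, encodes an inhibitory C-type lectin receptor (DCIR) that neutrophils and monocytes carry as well as dendritic cells. It measured 37.0 RPKM in NTB, 25.2 in 4T1-TB and 101 under IRF8 deficiency. The libraries did not overlap, with ratios to NTB of 0.681 (interval 0.641 to 0.722) in 4T1-TB and 2.73 (2.63 to 2.83) in IRF8-deficient. By summed reads the latter difference was 0.89 in place of 1.42. Of its 50-base windows, 6.69% occur in other genes, and its relatives Clec4a4 and Clec4b1 were at most 0.982 in any library.

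Clec10a, which encodes a galactose-binding lectin of dendritic cells and macrophages, had 2.47 in NTB, 1.32 in 4T1-TB and 1.30 under IRF8 deficiency. It was lower in both, by 1.87-fold (interval 1.33 to 2.67) and 1.90-fold (1.38 to 2.65), and the low libraries overlapped each other. Its close relative Mgl2, which shares windows with it, was far more abundant at 56.6, 49.9 and 40.2, so the reads given to Clec10a (166, 44 and 51) are uncertain where the transcripts are alike.

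Clec9a, the receptor for dead cells on cross-presenting dendritic cells, stayed below an RPKM of 1 but was not level. It had 10 reads in NTB, 4 in 4T1-TB and 45 under IRF8 deficiency, for RPKM of 0.068, 0.055 and 0.523. IRF8-deficient was 7.72 times NTB (interval 3.84 to 17.2). Clec1b, an overlapping gene on the same strand, had 0.267, 0.192 and 1.37, so it was highest in the same library, and 4.02% of the windows of Clec9a occur in it. Xcr1, a chemokine receptor of the same dendritic cells, was not high there, with 22, 2 and 10 reads. Siglech, a marker of plasmacytoid dendritic cells, had 5, 0 and 1 reads, and Cd209a, the DC-SIGN homolog of monocyte-derived dendritic cells, was at 0 in every library.

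The costimulation and migration genes, by which dendritic cells activate T cells and travel to lymph nodes, were near 0 except for Cd80. Cd80 had 0.355 in NTB, 0.265 in 4T1-TB and 1.44 under IRF8 deficiency, from 27, 10 and 64 reads. NTB and 4T1-TB overlapped, and IRF8-deficient was 4.07 times NTB (interval 2.56 to 6.63), which the pseudocount held to a difference of 0.85. Its partner Cd86, which binds the same T cell receptors, had 8 reads in NTB, 14 in 4T1-TB and 15 under IRF8 deficiency. At RPKM of 0.070, 0.248 and 0.226 both others were above NTB, by 3.53 times (1.38 to 9.71) and 3.22 times (1.28 to 8.76). Cd83 had 3 reads and Cd40 about 3, all in IRF8-deficient, and the Cd40 count is uncertain because its gene length could not be settled. Ccr7, the receptor that guides mature dendritic cells, was at 0 in every library, where 3 reads would have given 0.034, 0.068 and 0.058.

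**Figure D4:**
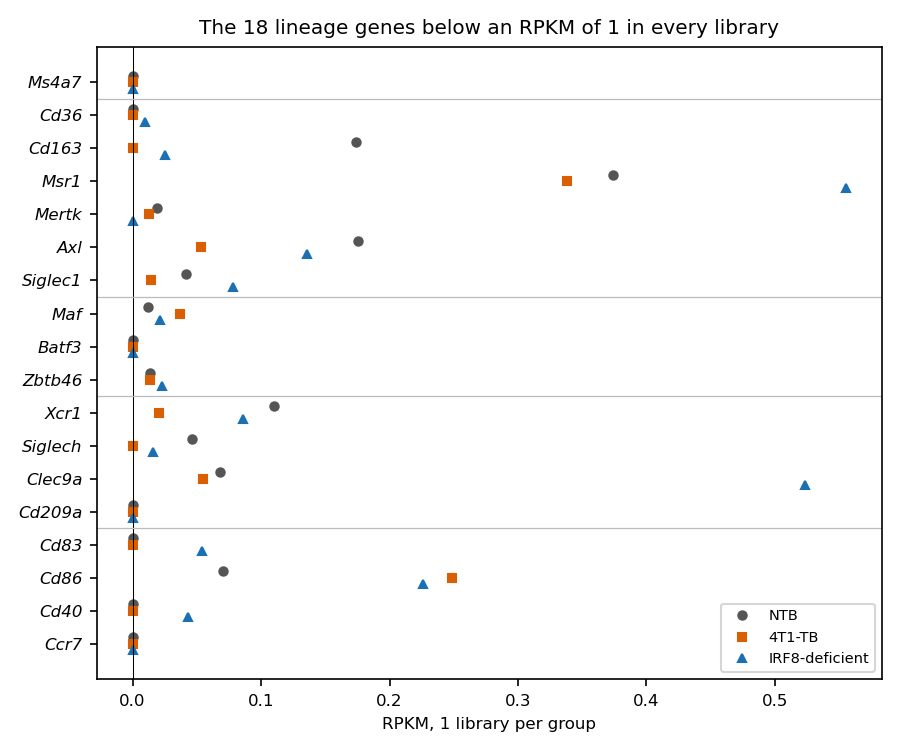
RPKM of the 18 lineage genes that stayed below an RPKM of 1 in every library, in NTB (circles), 4T1-TB (squares) and IRF8-deficient (triangles), with gray lines between role groups. Batf3, Cd209a, Ccr7 and Ms4a7 lie at 0 in all 3, and Clec9a at 0.523 and Msr1 at 0.556 in IRF8-deficient are the highest points.

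A call that needs the whole counting interval of the plain ratio to lie past 2-fold, with no pseudocount and no filter, was added after the data were seen. In 4T1-TB against NTB it called 5 genes of the list lower, where it called 2.86% of all genes with a read lower, and 1 higher, where it called 2.04%. Cd163 joined the genes already named. In IRF8-deficient against NTB it called 9 higher (7.73% of all genes) and 3 lower (7.63%), with Clec9a and Cd80 joining the higher genes and Cd163 and Pou2f2 the lower. In IRF8-deficient against 4T1-TB it called 11 higher (7.82% of all genes) and 0 lower (6.87%), with Clec9a and Cd80 again added.

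A list of 56 other genes of these lineages held all 12 monocyte and macrophage markers summed earlier. It also held every dendritic cell marker summed earlier except Klrd1, and the B cell marker Ms4a1. The lists are therefore not separate. Of the 56, 55 were in the files and 33 were compared, and the compared genes split in both directions. In 4T1-TB against NTB, 4 passed the call downward (1.35% of all genes did) and 1 upward (1.67%), and the median was −0.11, against 0.01 over all genes. The lower genes were Klf4, a factor of monocyte differentiation (1.51 against 6.40), Csf1r, the macrophage colony-stimulating factor receptor gene (11.0 against 24.6), the chemokine receptor gene Cx3cr1 (0.612 against 2.81) and the surface antigen gene Ly6c1 (29.4 against 97.9). The higher gene was Fcgr4, an activating Fc receptor gene (9.76 against 3.16).

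In IRF8-deficient against NTB, 10 passed the call upward (8.78% of all genes did) and 4 downward (5.73%), and the median was 0.60, against −0.02 over all genes. The higher genes were the lysozyme genes Lyz2 (8190 against 300.3) and Lyz1 (743 against 28.3), Itgam (361 against 52.2), Cd9 (153 against 28.5), Id2 (106 against 13.8), Adgre5 (103 against 27.1), Fcgr4 (19.3 against 3.16), Nfil3 (17.1 against 4.60), Tlr7 (8.78 against 0.959) and Relb (2.11 against 0.173). Tlr7 and Relb reached an RPKM of 1 only in IRF8-deficient, so their direction was fixed here and against 4T1-TB below. H2-Aa, which was not called, entered the compared genes the same way, and Flt3 entered only through NTB. Klf4 (1.16 against 6.40), Ly6c1 (28.1 against 97.9), the lipopolysaccharide coreceptor gene Cd14 (1.48 against 4.68) and the adhesion gene Vcam1 (10.5 against 99.6) were lower. Against 4T1-TB, 11 were higher (8.83% of all genes were) and 2 lower (7.07%). The higher genes included Ccr2, the receptor with which monocytes leave the marrow (40.8 against 13.4), and Ly6c2 (1349 against 478). The 2 lower genes were Cd14 (1.48 against 4.61) and Vcam1 (10.5 against 71.3). Ly6c1 and Ly6c2 are near-identical copies, as are Lyz1 and Lyz2, so their separate values are uncertain. The macrophage genes Vsig4 and Marco and the plasmacytoid dendritic cell receptor gene Ccr9 were at 0 in all 3 libraries.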

How the data were processed

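RNA of sorted bone marrow granulocyte progenitors was sequenced in 3 libraries, 1 per group. The authors deposited RPKM per gene symbol. Per the submitters' processing notes, which give no roles, the tools were edgeR 3.12.1, HTSeq 0.6.1, TopHat2 2.0.13, Picard 1.97, CASAVA 1.8.2 and cutadapt 1.2.1 and the build was mm10. Whole reads were recovered from the deposited RPKM through ratios between libraries and whole gene lengths, found for 98.6% of 15158 genes above 0. Of 6766 genes used to set the library size, 99.9% had a length within 0.02 bases of a whole number. The recovery was tested on simulated data. Differences were taken on log2(RPKM + 1) over the genes that reached an RPKM of 1 in some library, and called at 2-fold. Intervals are exact at 95% and cover counting error only, and floors are 3 reads. Values are given for every gene of the list that reached an RPKM of 1, and for lower genes that define a cell type. The genes, lists and motifs were chosen with earlier results of these data known. Alternatives were other pseudocounts, no filter, other scalings, a 4-fold call and, added after the data were seen, a call on the counting interval. Annotation came from GENCODE M21 and promoters from RefSeq. Python 3.11.15, numpy 2.4.6, pandas 2.3.3, scipy 1.17.1 and matplotlib 3.10.9 were used.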

Additional observations from a re-analysis of the deposited data

How the results depend on the processing

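With 1 library per group, no library could be left out. No paired analysis was possible because each group has 1 library. With a pseudocount of 0.1, 1 gene was higher and 6 lower in 4T1-TB against NTB, and 8 were higher and 2 lower in IRF8-deficient against NTB. Against 4T1-TB, 11 were higher and 2 lower in IRF8-deficient. Shares over all genes were not computed for the pseudocounts of 0.1 and 5. With a pseudocount of 5, 0 were higher and 3 lower in 4T1-TB against NTB, and 5 were higher and 1 lower in IRF8-deficient against NTB. Against 4T1-TB, 5 were higher and 0 lower in IRF8-deficient. The medians of the list were then −0.25 (4T1-TB against NTB), 0.29 (IRF8-deficient against NTB) and 0.57 (IRF8-deficient against 4T1-TB). Without the filter, over all 38 genes, these medians were −0.052, 0.032 and 0.089. Rescaled without the 20 highest genes, 7 were higher (6.7% of all genes) and 2 lower (8.75%) in IRF8-deficient against NTB. By summed recovered reads, 0 were higher (1.46% of all genes) and 5 lower (1.97%) in 4T1-TB against NTB. Under the same scaling 5 were higher and 3 lower in IRF8-deficient against NTB with a median of 0.11 (4.37% and 18.4% of all genes were). For IRF8-deficient against 4T1-TB, 6 were higher and 1 lower (4.74% and 14.7% of all genes). At a 4-fold call, 0 were higher (0.441% of all genes) and 0 lower (0.0469%) in 4T1-TB against NTB. In IRF8-deficient against NTB, 2 were higher (Lgals3 and Apoe, 1.9% of all genes) and 1 lower (Ly86, 0.385%). Against 4T1-TB, 4 were higher (1.67%) and 0 lower (0.469%) in IRF8-deficient. By the counting interval, chosen after the data were seen, 9 were higher (7.73% of all genes) and 3 lower (7.63%) in IRF8-deficient against NTB. Median ratio scaling changed no call among the 20 genes. The fewer reads of 4T1-TB make its low genes the least precise, and for a gene at 0 there a ratio was taken from the floor of 3 reads. Apart from the scaling and settings named, the cause of these changes was not tested.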
